A study of Oryza sativa with 16 samples.

Results

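Seeds of the rice cultivars Hanfeng (HF) and Zhonghua 11 (ZH) were compared over 2 temperatures, to find the probe sets whose level differed between the cultivars in the same way with and without low temperature. The comparison used 8 of the 16 arrays of the series, assigned to groups by their labels. These were 4 arrays of HF seeds and 4 of ZH seeds, and the other 8 arrays, all of ZH seeds, were used only as levels set beside them. Both cultivars are japonica rice, and the study describes HF as resistant to cold and ZH as sensitive to it. Plants were kept in a phytotron with days of 28°C and nights of 22°C. The seeds named HF 4D-2DC, like those named ZH 4D-2DC, came from plants moved to 14°C for 2 days at 4 days after fertilization (DAF), and HF 4D and ZH 4D seeds were collected at 4 DAF without that treatment, so that treated and untreated seeds of a cultivar differed in both temperature and age. A later age is named in one place of the study for untreated HF seeds. The labels were followed here, and if that age is right, cultivar and age cannot be told apart at normal temperature. The labels give 2 biological replicates in each of these 4 groups but not the plants behind them, so that p-values describe the spread of these samples alone. The other ZH arrays held seeds at 6, 10 and 12 DAF and seeds treated for 2 days from 10 DAF.

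A cultivar is a fixed genotype, and 2 cultivars can differ at many genes at once, in promoter sequence, in gene content and in the coding sequence itself. The rice genome array reads each transcript with short oligonucleotide probes drawn from reference sequences. A low signal in one cultivar can therefore stand for less transcript or for a transcript that the probes match less well, and the design cannot tell these apart. A rice seed holds the embryo, the endosperm with its outer aleurone layer, and the maternal pericarp and seed coat. In such a bulk sample fewer cells of a type and less RNA per cell cannot be told apart. At the young stages used here the endosperm turns from cell division to the deposition of starch and storage proteins.

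The deposited MAS5 signals are linear and have the same trimmed mean on each array, and they were compared as log2(signal + 16) in a linear model with cultivar, treatment and replicate number. Differences are given as HF minus ZH with the standard error (SE) of the fit. Folds are on this scale, which understates the change of probe sets with low signals. A probe set was called at an adjusted p under 0.05 (limma, Benjamini-Hochberg, two-sided), and an unadjusted p under 0.05 together with more than 2-fold is given beside it as the methods' threshold. The study states these cutoffs for genes regulated by low temperature, without saying whether the p was adjusted.

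The 4 arrays of replicate 1 had median signals of 85.9 to 172, and those of replicate 2 of 49.8 to 56.7. HF 4D replicate 1 stood apart, and its best correlation with another of the 8 arrays was 0.758, against 0.859 to 0.959 for the other arrays. The markers of the seed tissues were present. The summed signal of 8 endosperm marker genes (glutelins and starch enzymes) was 38000 to 302000 on the HF arrays and 26900 to 403000 on the ZH arrays, with the lowest values in HF 4D replicate 1 and ZH 4D replicate 2. The 7 embryo markers summed to 2400 to 34400 in HF and 928 to 15700 in ZH. The 5 markers of green tissue summed to 18300 to 71900 in HF and 9260 to 32200 in ZH, and were higher in HF in each of the 4 pairs of arrays with the same temperature and replicate number. The 10 aleurone markers summed to 26700 to 77900 in HF and 17400 to 65900 in ZH, also higher in HF in each pair, and of these only AMY1.1 and AMY1.2, alpha-amylase genes, were under a signal of 100 on all 8 arrays. The 17 markers of cell division summed to 12300 to 36400 in HF and 14100 to 32200 in ZH. Their part in the differences given here was not tested.

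Of the 34316 probe sets tested, 28 were higher in HF (0.0816%) and 22 were lower in HF (0.0641%) at an adjusted p under 0.05, together 50 (0.146%). Leaving out 1 array at a time gave 2 to 32 calls, the fewest without replicate 2 of HF 4D-2DC or of ZH 4D-2DC. The differences were large. The 28 higher probe sets were 6.41-fold to 121-fold above ZH with a median of 13.8-fold, and the 22 lower ones were 4.86-fold to 87.5-fold below ZH with a median of 10.8-fold. In each of the 50 probe sets the 4 HF arrays lay outside the range of the 4 ZH arrays. The 50 were called on these same 8 arrays, so this separation largely follows from the call and is a description. Over all probe sets tested, the 4 HF arrays lay above the 4 ZH arrays in 0.664% and below them in 1.31%. When the other ZH arrays were added, 23 of the 28 higher and 18 of the 22 lower probe sets still had no overlap between the 4 HF arrays and all 12 ZH arrays, against 0.216% and 0.242% of all probe sets tested. This count holds the arrays of the call again, and only the other ZH arrays were new to it. Many of these probe sets were near the floor of the array in one cultivar, since all 4 ZH signals were under 100 in 17 of the 28 higher probe sets and all 4 HF signals were under 100 in 14 of the 22 lower ones. The median signal of these arrays was 49.8 to 172, so a signal under 100 was not particular to the called probe sets. Its share over all probe sets tested was not counted. The 28 higher probe sets included 17 with 1 annotated gene, and the 22 lower ones included 8. Only 2 of these 25 genes, OsC3H2 and HSP17.9A, carry a name in the annotation, and no role is given here for the others.

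OsC3H2, also named OsDOS, encodes a CCCH zinc finger protein that is known in rice to delay leaf senescence. Its called probe set had signals of 973 and 2040 in HF 4D-2DC seeds and 1230 and 737 in HF 4D seeds, against 105 and 80.0 in ZH 4D-2DC seeds and 49.8 and 51.4 in ZH 4D seeds. All 4 HF arrays were above all ZH arrays, including the 8 others, which lay between 65.2 and 277. The difference was 3.79 ± 0.38 (SE, n = 4 arrays each), with an adjusted p of 0.0191 (limma). It was 3.73 at low temperature and 3.86 at normal temperature. A second probe set of the gene had high signals in both cultivars, 1730 to 5700 in HF and 1150 to 7770 in ZH. For this probe set the difference was 0.02 ± 0.44, so that the higher level in HF was seen with one probe set of the gene and not with the other. Without single arrays the call of the first probe set was kept in 1 of 8 cases, and its highest adjusted p over the alternatives that used both temperatures and both replicates was 0.141.

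HSP17.9A encodes a small heat shock protein, one of the chaperones that hold unfolding proteins without using ATP. Its signal was 9150 and 11900 in HF 4D-2DC seeds and 4690 and 12100 in HF 4D seeds, against 1070 and 1990 in ZH 4D-2DC seeds and 923 and 1780 in ZH 4D seeds. The gene was abundant in both cultivars, and its lowest HF value was above its highest ZH value at these ages. The difference was 2.68 ± 0.32 (SE, n = 4 arrays each; adjusted p = 0.0368, limma), or 6.41-fold. It did not separate HF from older ZH seeds, since the other 8 ZH arrays ranged from 3000 to 31700 with a median of 19400. Of 16 genes of this group tested, 1 (6.25%) was higher in HF and none was lower at either threshold. The group had 8 positive and 8 negative differences and a median of -0.02. Over all 16003 genes, each read by its brightest probe set, 7831 differences were positive and 8172 negative. By the methods' threshold 1.92% of them had more signal in HF and 1.31% had less. Whether 1 of 16 exceeds that share was not tested. The 1 member called was HSP17.9A itself. The call was lost without the replicate block (adjusted p = 0.268) and was kept in 1 of 8 fits that left out an array.

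LOC4325215 and LOC4350155 had the lowest p-values and were the only called genes that kept an adjusted p under 0.05 in each of the 8 fits without single arrays. LOC4325215 had signals of 3060 and 3390 in HF 4D-2DC seeds and 7180 and 2770 in HF 4D seeds, against 15.7 and 4.61 in ZH 4D-2DC seeds and 40.4 and 10.7 in ZH 4D seeds. Its difference of 6.92 ± 0.36 (SE, n = 4 arrays each; adjusted p = 0.00232, limma) was the largest of all called probe sets. LOC4350155 had signals of 1380 and 1230 in HF 4D-2DC seeds and 853 and 1390 in HF 4D seeds, against 6.17 and 11.4 in ZH 4D-2DC seeds and 7.17 and 11.7 in ZH 4D seeds. The 4 HF values lay within 853 to 1390, and the other 8 ZH arrays were also between 1.89 and 10.4. Its difference was 5.60 ± 0.31 with an adjusted p of 0.00232 (limma). Across all alternatives that used both temperatures and both replicates, the highest adjusted p of these 2 genes was 0.0431.

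The other genes with the largest increases in HF were ranked by their difference, and by that choice had a clear signal in HF and little in ZH. A gene low in ZH could also pass the filter on the mean over the 8 arrays through its HF signals alone. LOC4340976 had signals of 695 to 1410 in HF and 2.27 to 31.3 in ZH. LOC4350996 had 334 to 1250 in HF and 2.02 to 14.2 in ZH. LOC9271834 had 508 to 970 in HF and 9.19 to 42.7 in ZH. Their differences were 5.12 ± 0.41, 4.77 ± 0.37 and 4.18 ± 0.40, with adjusted p values (limma) of 0.00851, 0.00851 and 0.0167. LOC4326922 had 762 to 1430 in HF and 1.87 to 66.3 in ZH with its called probe set. LOC4351178, LOC4343827 and LOC4325213 had lower margins, and their lowest HF signals of 398, 385 and 638 stood against highest ZH signals of 128, 164 and 197. For LOC4351178 and LOC4343827 the other ZH arrays reached 448 and 395, so that these genes did not separate HF from ZH at all ages. LOC4334423, chosen after its values were seen because its HF signals were among the highest of the called genes, had 2990 to 8080 in HF and 195 to 950 in ZH (3.19 ± 0.39, adjusted p = 0.0368, limma). LOC4341119, LOC4324098 and LOC4334987 completed the genes called higher apart from LOC4350802 and LOC4350154, which are described with their probe sets and neighbours, and had 102 to 764 in HF and 0.567 to 122 in ZH. Without the replicate block 8 of the 17 genes called higher were called, and the other 9 had adjusted p values (limma) of 0.147 to 1.0.

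**Figure D1:**
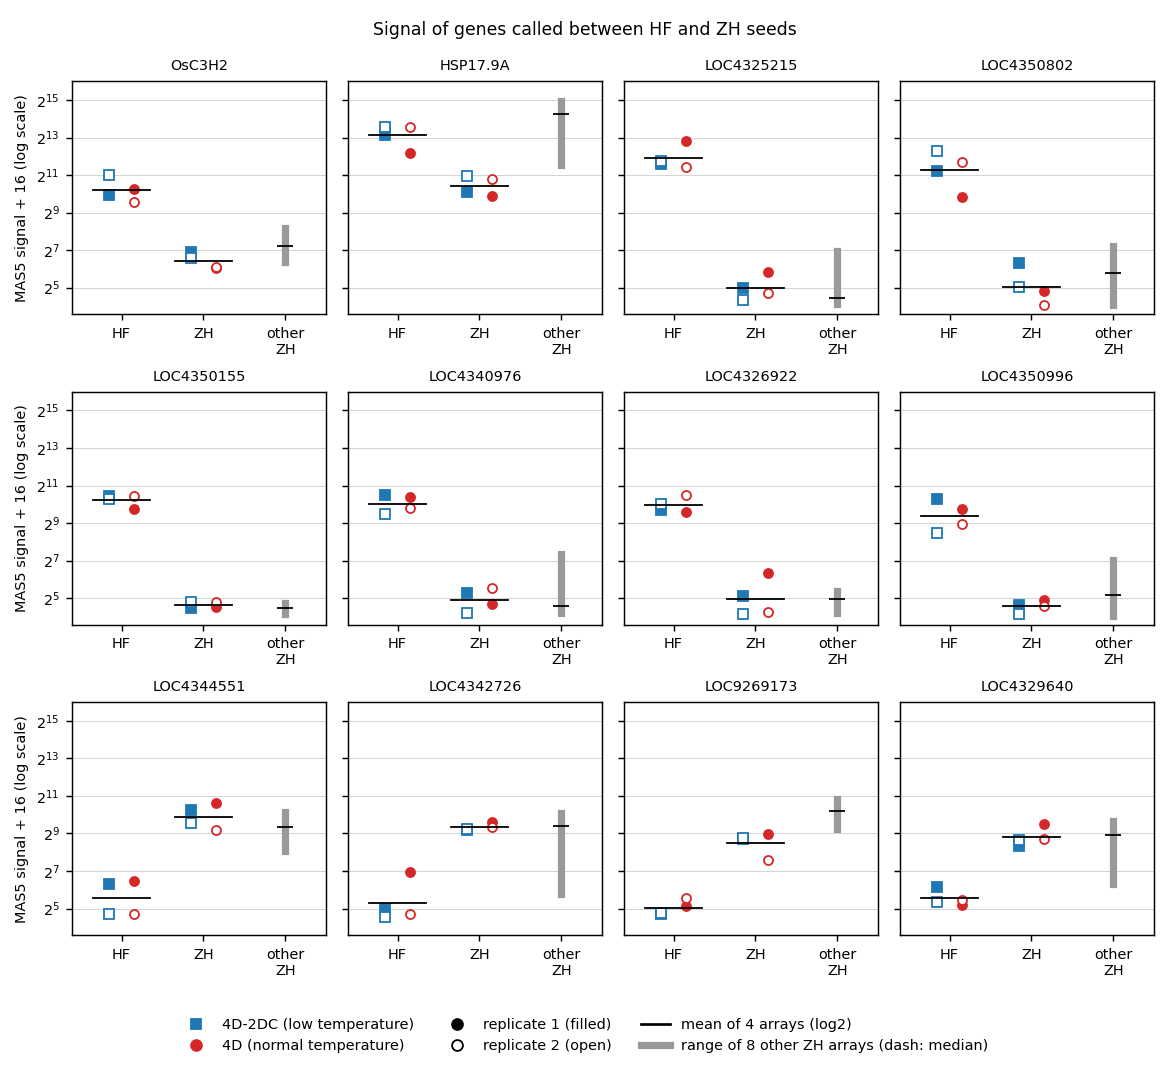
Signal + 16 on a log scale for 12 called genes in the 4 HF arrays (left of each panel), the 4 ZH arrays (middle) and the range of the 8 other ZH arrays (grey bar, dash at the median). Blue squares are low temperature and red circles normal temperature, filled for replicate 1 and open for replicate 2, and black lines are means on the log2 scale. In each panel the HF and ZH points do not overlap, and in that of HSP17.9A the grey bar reaches above the HF points.

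All 8 genes that were called lower in HF had signals of 106 or less there. LOC4344551 had signals of 62.8 and 10.2 in HF 4D-2DC seeds and 72.5 and 10.1 in HF 4D seeds, against 1190 and 729 in ZH 4D-2DC seeds and 1540 and 573 in ZH 4D seeds. Its difference of -4.35 ± 0.32 (SE, n = 4 arrays each) had an adjusted p of 0.00851 (limma). A second probe set of the gene was also low in HF, 34.5 to 84.2 against 180 to 1130 in ZH, with a difference of -2.89 ± 0.47 that did not pass (adjusted p = 0.131, limma). LOC4342726 had 7.40 to 106 in HF and 559 to 777 in ZH, and HF 4D replicate 1 was the array with 106. The other ZH arrays went down to 38.0, so that this gene did not separate HF from ZH at all ages. LOC9269173 had 10.6 to 30.6 in HF and 177 to 479 in ZH, and the other ZH arrays were higher still, at 585 to 1810. LOC4329640 had 20.7 to 55.9 in HF and 304 to 708 in ZH. These 3 genes differed by -4.06 ± 0.45, -3.46 ± 0.42 and -3.27 ± 0.40. The remaining 4, LOC9270064, LOC4350112, LOC9266242 and LOC9271954, were at 1.79 to 34.2 in HF and 87.9 to 312 in ZH, with adjusted p values (limma) of 0.0254 to 0.0488. Without the replicate block none of the 8 genes was called, at adjusted p values (limma) of 0.0628 to 0.363.

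The largest decreases belonged to probe sets that the annotation pairs with no gene. Os.6820.1.S1_s_at had signals of 42.6 and 4.74 in HF 4D-2DC seeds and 158 and 13.9 in HF 4D seeds, against 3200 and 5230 in ZH 4D-2DC seeds and 2980 and 7320 in ZH 4D seeds (-6.45 ± 0.65, adjusted p = 0.0196, limma). Os.54323.1.S1_at had 6.83 to 324 in HF and 2200 to 7450 in ZH, a difference of -5.81 ± 0.58. Both were among the abundant transcripts of ZH seeds at all ages studied, with at least 2260 and 3110 on the other 8 ZH arrays. Among the increases with no gene, Os.38086.2.S1_x_at had 420 to 841 in HF and 0.653 to 18.6 in ZH. Os.46591.1.S1_at had 668 to 2190 in HF and 8.15 to 93.7 in ZH. Each of these differed by 4.72, with an SE of 0.41 and 0.31. The identifier of Os.38086.2.S1_x_at shares the number 38086 with that of the called probe set of LOC4325215. Whether both read the same transcript was not tested.

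Of the 25 called genes, 8 had more than one probe set that was tested, and in 5 of these another probe set differed by less than 2-fold. LOC4326922, at 4.99 ± 0.52 with the called probe set, was at 2710 to 7780 in HF and 4170 to 8570 in ZH with another, a difference of -0.21 ± 0.32. LOC4334423 had a second probe set close to the first, at 3.13 ± 0.43, and a further one at -0.25 ± 0.40. LOC4341119 was at 3.17 ± 0.36 with the called probe set and at 0.10 ± 0.30 with another. LOC4324098 was likewise at 3.01 ± 0.39 and at 0.21 ± 0.45. LOC4350802 had probe sets of opposite sign. Its called probe set had 2330 and 5060 in HF 4D-2DC seeds and 906 and 3360 in HF 4D seeds, against 62.5 and 16.3 in ZH 4D-2DC seeds and 11.8 and 0.735 in ZH 4D seeds (6.23 ± 0.55, adjusted p = 0.0107, limma). Another had 43.7 to 88.5 in HF and 359 to 839 in ZH (-2.79 ± 0.41, adjusted p = 0.0893, limma). In 2 of the 8 genes, LOC4344551 and LOC4334987, all probe sets differed over 2-fold in the same direction. The probe sets given here beside the called ones were chosen after their values were seen.

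**Figure D2:**
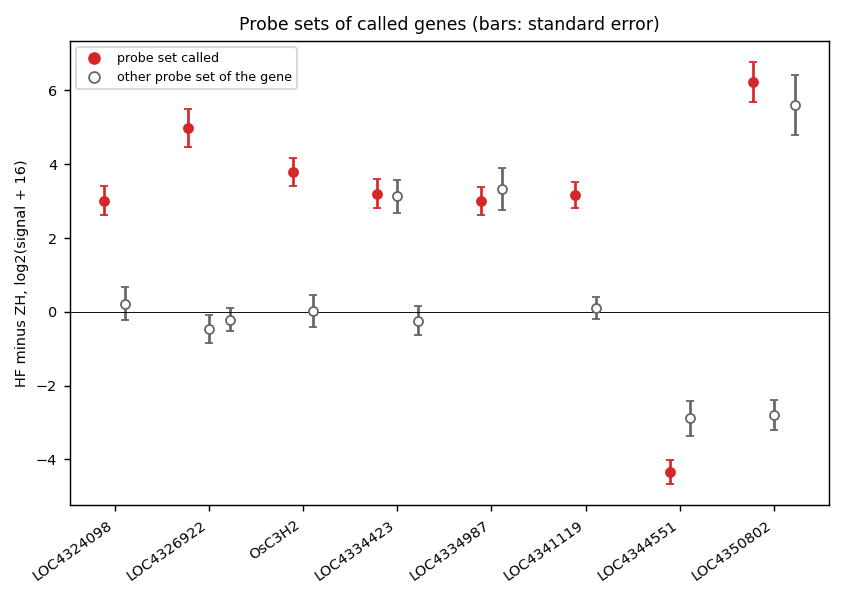
HF minus ZH difference on log2(signal + 16) for each probe set of the 8 called genes with more than one tested, with standard errors as bars. Red points are called probe sets and open grey points are the other ones of the gene. OsC3H2 has one probe set at 3.79 and one at 0.02, and LOC4350802 has probe sets on both sides of 0.

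In the model used for the calls, a gap between the temperatures adds to the residual, so that probe sets with equal differences at both are called more readily. The values of the called probe sets at each temperature are therefore a description. For the 28 higher probe sets the difference lay between 2.57 and 6.98 at low temperature and between 2.54 and 6.85 at normal temperature. For the 22 lower ones it lay between -6.88 and -2.40 at low temperature and between -6.02 and -2.16 at normal temperature. The largest gap between the temperatures was 1.47 among the higher and 1.56 among the lower probe sets. All 50 had the same sign in the 4 pairs of arrays. Over all probe sets tested, 6.32% were positive and 9.14% negative in the 4 pairs. In the test of the cultivar by treatment interaction (limma), 0 of 34316 probe sets passed an adjusted p under 0.05 (0.0%), and 554 had an unadjusted p under 0.05 (1.61%). At the methods' threshold the difference was more positive at low temperature in 142 probe sets (0.414%) and more negative in 412 (1.2%).

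**Figure D3:**
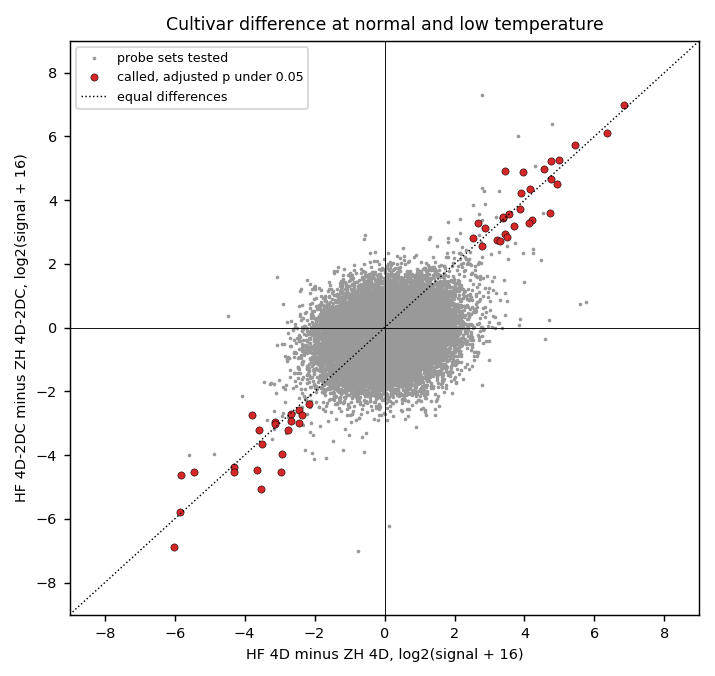
HF minus ZH difference at normal temperature (horizontal) against low temperature (vertical) for 34316 probe sets, on log2(signal + 16). Red points are the 50 called probe sets, grey points are the others, and the dotted line marks equal differences. The calls favour points near that line, and the correlation over all probe sets is 0.274.

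Probe sets were also picked at one temperature and their differences read at the other, the called ones included. The arrays of the 2 temperatures are different, but the p-values of the picks came from a fit of both temperatures together. Their residual was therefore estimated in part on the arrays that were then read. The picks were not independent of those arrays, and the shares that follow are a description. Of the 240 probe sets higher in HF at the methods' threshold at low temperature, 207 (86.2%) were also higher at normal temperature and 140 (58.3%) by more than 2-fold, against 49.2% and 10.3% of all probe sets tested. Of the 685 that were lower at low temperature, 480 (70.1%) were also lower at normal temperature and 202 (29.5%) by more than 2-fold, against 50.8% and 8.77% of all. Picked at normal temperature, 479 of 695 higher (68.9%) and 556 of 673 lower probe sets (82.6%) kept their sign at low temperature, against 42.4% and 57.6% of all. More than 2-fold was kept by 26.2% of the higher and 31.2% of the lower ones, against 3.7% and 9.86% of all. Across all probe sets the correlation of the 2 differences was 0.274. By array pair it was 0.524 between the low and normal temperature pairs of replicate 2 and 0.094 between those of replicate 1, and it was -0.232 between the 2 pairs at normal temperature. Probe sets are not independent, and those pairs share a replicate number or a temperature. The share of probe sets with more than 2-fold in either direction was also widest in the normal temperature pair of replicate 1, which holds the array that stood apart, with 26.0% higher and 19.1% lower in HF, against 6.06% and 13.3% in the low temperature pair of replicate 2.

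The methods' threshold was passed by 624 probe sets with the higher level in HF (1.82%) and 1045 with the lower (3.05%), together 4.86%, while 2155 (6.28%) had an unadjusted p under 0.05. Of the 624, 512 had the same sign in all 4 pairs and 155 had no overlap between the 4 HF and the 4 ZH arrays. Of the 1045, 825 had the same sign and 281 no overlap. The split depended on the scaling of the arrays. After centring each array on its median, 1257 probe sets were higher and 610 lower, and after quantile normalization 854 were higher and 784 lower. Median centring also moved the median of all differences to 0.09, against -0.07 as deposited. The 50 called probe sets were less affected, and 45 of them were called again after median centring and 41 after quantile normalization.

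Gene groups were read against the 16003 genes tested, each represented by the brightest of its probe sets, of which 308 (1.92%) were higher in HF and 209 (1.31%) lower at the methods' threshold, with a median of -0.01. None of the genes named in the following groups passed an adjusted p, and their values are given as measured. Aquaporins, the channels that carry water across the plasma membrane and the tonoplast, had a median of 0.64. Of 21 tested, 17 had a positive difference, and 5 (23.8%) passed the methods' threshold, all higher in HF. These were the plasma membrane genes PIP2-4, PIP2-5 and PIP1-2 and the tonoplast genes TIP2-2 and TIP1-1, and 3 and 7 members passed under quantile normalization and median centring. Without HF 4D replicate 1 the group median was 0.13. PIP2-4 had signals of 92.1 and 5110 in HF 4D-2DC seeds and 461 and 5860 in HF 4D seeds, against 27.5 and 449 in ZH 4D-2DC seeds and 216 and 387 in ZH 4D seeds (2.42 ± 0.67, unadjusted p = 0.00733, adjusted p = 0.637, limma). Its groups overlapped, and its pair differences were 3.86 and 3.46 in replicate 2 against 1.04 and 1.31 in replicate 1. PIP2-5 likewise differed by 3.13 and 2.32 in the pairs of replicate 2 and by 0.61 and -0.02 in those of replicate 1.

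The list of glucan synthases and cell wall genes had 5 of 43 members (11.6%) higher in HF at the methods' threshold and none lower, while its median was 0.00. All 5 were expansins, the proteins that loosen cell walls. Counted after these values were seen, 17 expansins of the list were tested, of which 10 had a positive and 7 a negative difference, with a median of 0.45. EXPB6 had signals of 378 and 2500 in HF 4D-2DC seeds and 1160 and 7240 in HF 4D seeds, against 151 and 1200 in ZH 4D-2DC seeds and 554 and 3460 in ZH 4D seeds. The difference of 1.10 ± 0.29 (unadjusted p = 0.00587, adjusted p = 0.628, limma) was even over the 4 pairs, at 1.04 to 1.24, although the level varied between arrays far more than that. EXPB7 differed by 1.37 ± 0.37. EXP1, EXPB3 and EXPB11, chosen after their values were seen, differed by 1.36 ± 0.40, 1.35 ± 0.43 and 1.32 ± 0.46. The summed signals of green tissue and of aleurone markers were also higher in HF in each pair. Of 4 green tissue markers tested, 1 passed the methods' threshold, the photosystem I subunit gene GOS5 (1.13 ± 0.42), and their median was 1.09. Aleurone markers had a median of 0.76 and 2 of 7 past that threshold, the alpha-amylase gene AMY1.5 at 1.13 ± 0.40 and the lipid transfer protein gene LTP2-B at 1.44 ± 0.58. Whether the aquaporin and expansin values follow the share of green tissue or aleurone in the seed was not tested.

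Storage proteins showed how unevenly the array pairs contributed. Of 10 genes tested, 9 had a positive difference and the median was 0.99, yet none of these 9 passed either threshold. The median was 6.75 in the normal temperature pair of replicate 2, -1.53 in that of replicate 1, and 0.79 and -0.35 in the low temperature pairs of replicates 2 and 1. GLUA-1, a glutelin gene, differed by 8.84 in the first of these pairs and by -1.13, 0.83 and -0.31 in the others. Without ZH 4D replicate 2, the array with the lowest endosperm markers, the median was -0.29, and without HF 4D replicate 2 it was 0.04. Starch synthesis genes followed the same pairs, at -2.40 and 0.93 at normal temperature and -0.29 and 0.31 at low temperature in replicates 1 and 2, with a median of -0.38 and 0 of 6 genes past either threshold. GBSS-I, the starch synthase that makes amylose, had 5930 to 64500 in HF and 7380 to 130000 in ZH (-0.71 ± 0.87). SBE1, a starch branching enzyme, differed by -0.44 ± 0.81. OsSUS3 and OsSUS2, sucrose synthases that supply starch synthesis, differed by -0.28 ± 0.45 and 0.02 ± 0.47, and 0 of 18 sucrose genes passed the methods' threshold.

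**Figure D4:**
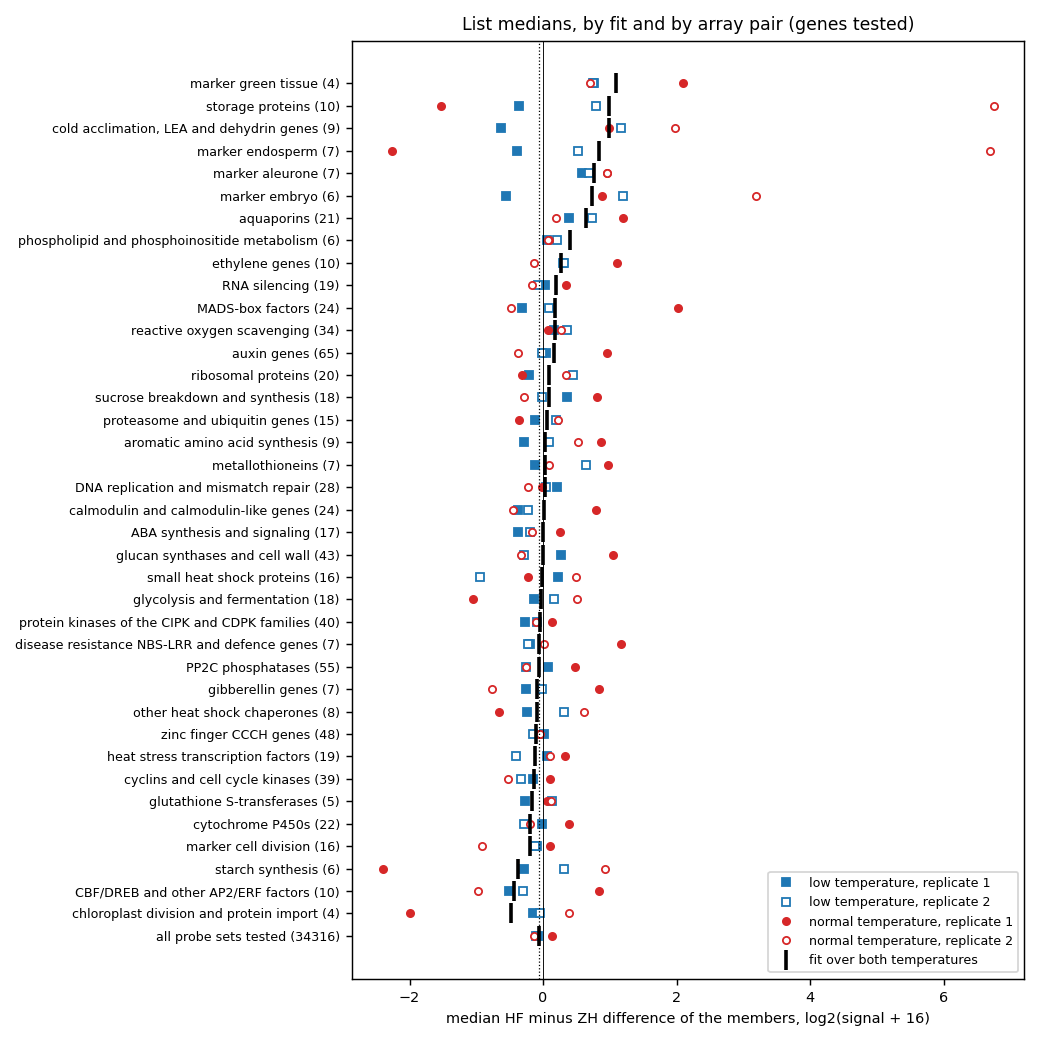
Median HF minus ZH difference of each gene list on log2(signal + 16), with the number of genes tested in brackets. Black bars are the fit over both temperatures, blue squares the low temperature pairs and red circles the normal temperature pairs, filled for replicate 1 and open for replicate 2, and the dotted line is the median of all probe sets tested. Storage proteins reach 6.75 in one pair and -1.53 in another, whereas green tissue and aleurone markers lie above 0 in all 4.

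RA17, a seed allergen gene of the alpha-amylase and trypsin inhibitor family, was the 1 storage protein past the methods' threshold. Its signal was 75.7 and 43.8 in HF 4D-2DC seeds and 833 and 2.66 in HF 4D seeds, against 7120 and 12900 in ZH 4D-2DC seeds and 635 and 53.8 in ZH 4D seeds. The cultivars were apart at low temperature and overlapped at normal temperature, with a difference of -7.02 at low temperature and -0.76 at normal temperature. The interaction was -6.26 ± 1.92 (unadjusted p = 0.0128, adjusted p = 1.0, limma). In the other ZH seeds the gene was at 7220 to 175000. A second probe set of RA17, chosen after its values were seen, differed by -1.77 at low temperature and -0.44 at normal temperature. With it the cultivars overlapped at low temperature too, at 137 and 25.3 in HF 4D-2DC seeds and 480 and 132 in ZH 4D-2DC seeds. MADS27, a MADS-box transcription factor gene, differed mainly at normal temperature. It was at 365 and 273 in HF 4D-2DC seeds and 513 and 425 in HF 4D seeds, against 278 and 187 in ZH 4D-2DC seeds and 37.1 and 78.1 in ZH 4D seeds. Its difference was 0.44 at low temperature and 2.77 at normal temperature, and its interaction of -2.33 ± 0.81 had an unadjusted p of 0.0218 and an adjusted p of 1.0 (limma).

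At the methods' threshold, 3.23% of all genes tested passed in either direction. Among the cold and heat responses, 11.1% of cold acclimation, LEA and dehydrin genes and 10.0% of CBF/DREB and other AP2/ERF factors passed. The share was 5.26% of heat stress transcription factors and 2.94% of reactive oxygen scavenging genes. Each of these shares was 1 gene. Of 9 cold acclimation, LEA and dehydrin genes tested, 7 had a positive difference and the median was 0.99, but the median of the low temperature pair of replicate 1 was -0.63. After median centring all 9 were positive and 3 passed the methods' threshold, against 1 as deposited. Of these 9 genes, EM, RAB16C, RAB16B and RAB21 were also among the 6 embryo markers tested, whose median was 0.73, and the part of embryo tissue was not tested. RAB16C, a dehydrin gene, was higher in all 4 pairs and was the 1 member past the methods' threshold. It had 244 and 398 in HF 4D-2DC seeds and 274 and 119 in HF 4D seeds, against 200 and 52.5 in ZH 4D-2DC seeds and 130 and 7.43 in ZH 4D seeds (1.60 ± 0.52, unadjusted p = 0.0162, adjusted p = 0.717, limma). Among 10 CBF/DREB and other AP2/ERF factors, 8 had a negative difference with a group median of -0.43, and AP2-1 differed by -1.50 ± 0.54. Among 19 heat stress transcription factors HSF07 passed the methods' threshold at -1.15 ± 0.44, and of 8 other heat shock chaperones none did, with HSP81-3 at -0.19 ± 0.36 and BIP1 at -0.16 ± 0.41. Of 34 genes of reactive oxygen scavenging, 26 had a positive difference and 1 passed, the thioredoxin h gene OsTrxh4-1 at 1.50 ± 0.43. The 48 zinc finger CCCH genes, represented in the same way, had 0 members past either threshold and a median of -0.10, and OsC3H2 was counted there by the probe set that did not differ.

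Lists of hormone and cell cycle genes had 0.0% to 2.56% of their members past the methods' threshold, against 3.23% of all genes tested. Of 55 PP2C phosphatase genes, a family that includes the negative regulators of abscisic acid signaling, OsPP2C05 alone passed the methods' threshold (1.37 ± 0.37, unadjusted p = 0.00603). Its signals were 677 and 1110 in HF 4D-2DC seeds and 391 and 834 in HF 4D seeds, against 138 and 682 in ZH 4D-2DC seeds and 103 and 462 in ZH 4D seeds, and it was higher in HF in each pair. None of 17 genes of ABA synthesis and signaling passed, with the gene annotated as aba1 at -0.29 ± 0.32 and the ABA hydroxylase gene ABA8OX2 at 0.05 ± 0.69. Among 65 auxin genes the auxin response factor ARF10 passed at -1.24 ± 0.43. None of 7 gibberellin and none of 10 ethylene genes passed. KRP6, an inhibitor of cyclin-dependent kinases, was the 1 of 39 cyclin and cell cycle kinase genes past the methods' threshold, at 1.27 ± 0.41, and 0 of 28 genes of DNA replication and mismatch repair passed. PCNA, the sliding clamp of DNA polymerase, differed by -0.12 ± 0.30.

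Other single genes past the methods' threshold were DAHPS1, the first enzyme of the shikimate pathway (1.11 ± 0.40), the hexokinase gene HXK3 (-1.09 ± 0.38), mads47 (-1.55 ± 0.62) and CYP99A3, a cytochrome P450 of momilactone synthesis (-1.21 ± 0.46). HXK3 had 31.8 to 78.7 in HF and 90.3 to 210 in ZH, without overlap between the groups. Ribosomal protein genes, 20 tested, and proteasome and ubiquitin genes, 15 tested, had 0 members past either threshold and medians of 0.09 and 0.06. The lists of RNA silencing (19 tested), phospholipid metabolism (6), metallothioneins (7), calmodulins (24), CIPK and CDPK kinases (40), glutathione S-transferases (5) and defence genes (7) also had none past either threshold. MT2A, which encodes a metal-binding metallothionein, was at 5520 to 22700 in HF and 2820 to 16400 in ZH with its brightest probe set (0.79 ± 0.35, unadjusted p = 0.0528, limma). Read by its probe set of the lowest p, MT2A did pass the methods' threshold. It thereby counts among the neighbours of LOC4325213 and LOC4325215, so that its probe sets differ on that threshold.

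**Figure D5:**
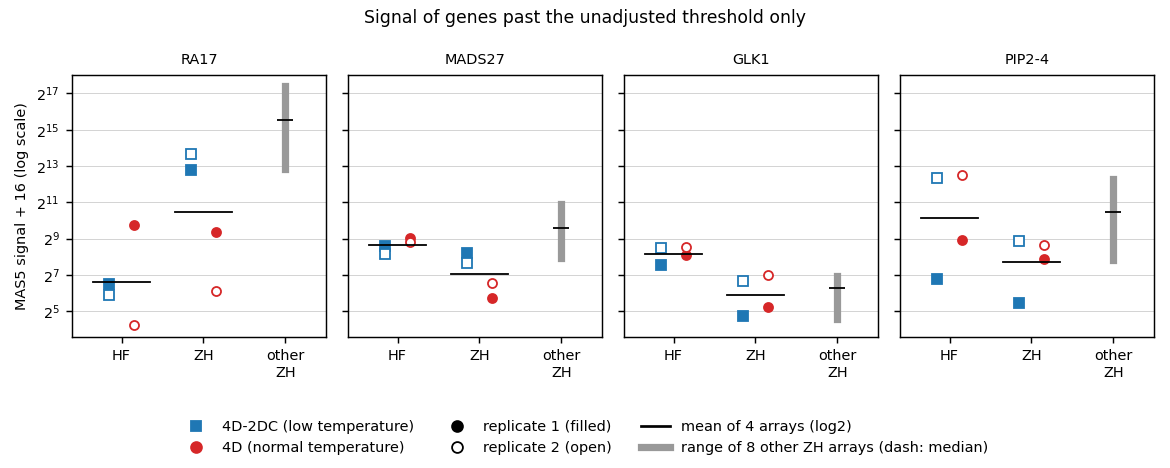
Signal + 16 on a log scale for RA17, MADS27, GLK1 and PIP2-4 in the 4 HF arrays (left), the 4 ZH arrays (middle) and the range of the 8 other ZH arrays (grey bar, dash at the median). Blue squares are low temperature and red circles normal temperature, filled for replicate 1 and open for replicate 2, and black lines are means on the log2 scale. The RA17 probe set shown separates the cultivars at low temperature only, and GLK1 lies at 173 or above in HF and at 111 or below in ZH.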

How the data were processed

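Total RNA of whole seeds was hybridized by the authors to Affymetrix rice genome arrays, 1 array per sample. The deposited values are linear intensity signals that the authors made with MAS5, per the labels. Each array had been scaled to a 2% trimmed mean of 500. The methods of the study name GC-RMA, so that the values used here were summarized in another way. No depth can be given for arrays, and their number limits the precision.

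After removal of 187 control probe sets, the 34316 above the 40th percentile of the mean over the 8 arrays were tested as log2(signal + 16), with treatment and replicate number as factors (limma 3.58.1, lmFit and eBayes, R 4.3.3; 4 residual and 3.79 prior degrees of freedom). P-values were two-sided and adjusted over all probe sets. The differences between replicates correlated among the 4 groups at 0.288 to 0.645, so the replicate number was taken to pair the arrays. An exact permutation test within temperature and replicate number cannot reach 0.05 and was not used.

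Of 57381 probe sets, 22436 were annotated with 1 gene, 95 with several and 34850 with none. Names and gene order came from the RefSeq table of assembly ASM3414082v1, in which 2457 genes on the array carry a name. No coordinate is reported. Named genes were the 12 largest increases and 12 largest decreases with 1 gene at an adjusted p under 0.05 (named genes first), up to 2 each way with no gene, up to 4 called members of a list or else 2 at the methods' threshold or of the highest mean, and OsC3H2, HSP17.9A and RA17. The comparison, the lists and these genes were chosen with earlier results of these data known. Tested on simulated data with 34316 probe sets, the cultivar fit recovered 32 of 100 log2 changes of 2 and 100 of 100 changes of 4, with 8 unchanged probe sets called. The simulated noise was independent between probe sets, equal on all 8 arrays and not tied to the signal level. It held no array that stood apart, so these counts do not measure the reliability of the calls in the data. Alternatives were other scalings, pseudocounts and filters, no replicate block, all 16 arrays, the arrays of single replicates, and each array left out. The differences at single temperatures were contrasts within a fit of all 8 arrays.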

Additional observations from a re-analysis of the deposited data

Results flagged for a closer look

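LOC4350112, called lower in HF, had a single array far from the others of its cultivar. Its signal was 1.79 in HF 4D-2DC replicate 2, against 19.2 to 23.5 on the other 3 HF arrays, and the gap was 0.856 of the range of the 4 arrays on the log2 scale. All 4 values were far below the 110 to 312 of the ZH arrays. This was 1 of 52 groups of 4 arrays examined, and chance alone flags about 1 in 20. The cause was not tested.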

How the results depend on the processing

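The counts of called probe sets depended on most settings. At the adjusted p, 28 were higher and 22 lower in HF. Without the replicate block these were 12 and 4, with a pseudocount of 1, 12 and 8, without a filter 14 and 11, and with all 16 arrays 50 and 34. At the methods' threshold, 624 were higher and 1045 lower. Without the replicate block these were 279 and 549, with median centring 1257 and 610, with a pseudocount of 64, 397 and 453, without a filter 1082 and 1583, and with a filter at the 60th percentile 367 and 504. The difference at a single temperature, taken from a fit of all 8 arrays, left 0 higher and 0 lower at the adjusted p (limma). At low and normal temperature 925 and 1368 probe sets had an unadjusted p under 0.05 (limma). Fits to the arrays of a single replicate number also left 0 higher and 0 lower at the adjusted p (limma). In replicates 1 and 2, 2152 and 7264 probe sets had an unadjusted p under 0.05 (limma). At the methods' threshold low temperature alone gave 240 higher and 685 lower, normal temperature alone 673 lower, replicate 1 alone 1138 higher, and replicate 2 alone 1434 higher and 3650 lower. Leaving out single arrays gave 2 to 17 higher and 0 to 15 lower at the adjusted p and 490 to 967 higher and 904 to 1797 lower at the methods' threshold. The fewest calls, 2 higher and 0 lower, came without HF 4D-2DC replicate 2 or ZH 4D-2DC replicate 2. Calls totalled 5 without HF 4D-2DC replicate 1, 13 without HF 4D replicate 2, 3 without ZH 4D-2DC replicate 1, 22 without ZH 4D replicate 1, 4 without ZH 4D replicate 2, and 32 without HF 4D replicate 1, of which 27 were among the 50. The interaction gave 0 calls at the adjusted p in each fit. At the methods' threshold it gave 37 more positive and 110 more negative without the block, and 53 to 1266 and 148 to 2675 without single arrays. Fewer arrays or genes enter some of these fits, and the cause of the other shifts was not tested. No named gene with an unadjusted p under 0.05 changed its direction. Over these genes and all settings, the side of the adjusted threshold was kept in 872 cases, a call was lost in 322 and gained in 14. List medians moved by less than the spread between array pairs in 756 cases and by more in 34. With 4 arrays a cultivar, log2 changes near 2 were mostly missed in simulated data.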

Other observations

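Called genes often lay near other genes that differed. Of the 25 called genes, 24 had a place in the order of protein-coding genes of the RefSeq table. Of these 24, 16 (66.7%) had at least 1 other gene at the methods' threshold among the genes tested within 10 places on either side, against 36.2% of all 15871 genes with a place. Of the 236 pairs of a called gene and a tested neighbour, 33 (14.0%) had a neighbour past that threshold, against 4.03% of such pairs over all genes. Each gene was taken here by its probe set of the lowest p, and neighbouring called genes count each other. A neighbour shared by 2 called genes, as TPI is, counts in a pair with each of them. LOC4325213 and LOC4325215 stand next to each other on chromosome 1, and LOC4350154 and LOC4350155 on chromosome 11. LOC4350154 was at 202 to 461 in HF and 13.1 to 82.2 in ZH (2.68 ± 0.33, adjusted p = 0.0368, limma). All of these were higher in HF.

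Near the pair on chromosome 1 lies TPI, the triosephosphate isomerase of glycolysis, and near LOC4340976 on chromosome 6 lies GLK1, a transcription factor that activates chloroplast genes. Both were chosen after their values were seen. GLK1 had 173 and 347 in HF 4D-2DC seeds and 255 and 351 in HF 4D seeds, against 10.9 and 86.2 in ZH 4D-2DC seeds and 22.1 and 111 in ZH 4D seeds, without overlap (2.25 ± 0.36, unadjusted p = 0.000284, adjusted p = 0.125, limma). TPI had 1450 to 3370 in HF and 355 to 582 in ZH with one probe set (2.06 ± 0.35, adjusted p = 0.154, limma), but 4800 to 23000 in HF and 10600 to 18300 in ZH with another (-0.15 ± 0.39). On chromosome 11, 7 of 701 tested genes with a place in the gene order were called, of 24 on all chromosomes. LOC9266242, also called on chromosome 11, had no place in that order and was not counted. Of the 701 genes, 7.42% passed the methods' threshold, against 4.23% over the 12 chromosomes and 3.31% to 5.31% on each of the other 11.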
